A study of Mus musculus with 48 samples.

Results

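The red cell lineage was followed in the blood of stressed and ovariectomized mice through 9 genes: the transcription factors Klf1, Gata1, Tal1 and Nfe2, the receptors Epor and Tfrc, and the membrane proteins Slc4a1, Ank1 and Rhag. They were chosen by name, with earlier results of these data known. Every probe that carried one of these names on the array was taken, which gave 11 of 55681 probes and 9 of 34844 gene names. One array was hybridized per mouse and tissue, with blood and medial prefrontal cortex (mPFC) of the same 24 female C57BL/6J mice, labelled 17 weeks old. The 6 control mice had a sham operation and no stress, the 6 CUMS mice had a sham operation and chronic ultra-mild stress, the 6 OVX mice had their ovaries removed and no stress, and the 6 OVX+CUMS mice had both. Stress began after recovery from surgery, and blood was the centrifuged pellet of unseparated cells, so that red cells, platelets and leukocytes were measured together and fewer cells of a type cannot be told from less RNA per cell. The question asked of these genes was whether those tied to young red cells, Tfrc and Epor, moved with the genes of the mature red cell membrane.

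Red cells lose their nucleus before they enter the blood, and the RNA they still carry as reticulocytes decays within days. KLF1, GATA1, TAL1 and NF-E2 drive the erythroid programme in the bone marrow. GATA1, TAL1 and NF-E2 also act in megakaryocytes, whose fragments are the platelets. The erythropoietin receptor, encoded by Epor, keeps early precursors alive and falls as they mature, while the transferrin receptor, encoded by Tfrc, takes up iron for haem and is shed by reticulocytes as they become red cells. Band 3 (Slc4a1) is the anion exchanger of the red cell membrane, ankyrin-1 (Ank1) ties it to the spectrin skeleton, and the Rh-associated glycoprotein (Rhag) carries the Rh complex.

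Tfrc was the member with several probes, and their letters show which stretch of its transcript each of them read. The probes started at bases 1228, 1732 and 4288 of the transcript annotated on the array, so that the last lay towards its 3′ end, where amplification from a poly dT primer begins. The last probe (A_52_P228236, chromosome 16, 32632255 to 32632314 of mm9) was printed on 10 spots and the others on 1. The probe at base 1732 (A_51_P167876, 32624877 to 32625093) covers 217 bases of the genome with 60 letters and so crosses an intron, while A_65_P06446 (32620470 to 32620529) lies in 1 block. The other detected probes lay on mm9 at X:7536392-7536451 (Gata1), 4:114744219-114744278 (Tal1), 15:103078838-103078897 (Nfe2), 9:21763422-21763481 (Epor), 11:102210256-102210315 (Slc4a1), 8:24259068-24259127 (Ank1) and 17:40976929-40976988 (Rhag), and that of Klf1 at 8:87428881-87428940. The inner probes are given whole, and the 3′-end probe by its first 30 letters.
A_65_P06446: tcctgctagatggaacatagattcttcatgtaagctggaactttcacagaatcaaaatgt
A_51_P167876: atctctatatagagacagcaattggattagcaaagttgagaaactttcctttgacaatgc
A_52_P228236: tgagcaagatcacattaacaaagactagtt

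The 250 bases before the transcript start were read from RefSeq (GRCm38.p6) for Tal1, Klf1, Epor, Tfrc, Rhag and Gata1. Slc4a1, Ank1 and Nfe2 have no entry in the table used. Each window was searched on both strands for AGATAA, the GATA motif, for CCACACCC, the KLF motif, for TGANTCA, the NF-E2 core, and for CANNTG, the E-box bound by TAL1. Matches of different motifs were allowed to overlap. AGATAA was found in 9.99% of all 32851 windows of this length, CCACACCC in 3.20%, TGANTCA in 6.75% and CANNTG in 66.2%. Among the members, AGATAA stood in the windows of Epor (54 bases before the start) and Tal1 (205 bases before the start of the first of its 2 windows), both times on the opposite strand as TTATCT. The first of the 2 Tfrc windows held an E-box and none of the others. Epor and Tal1 are shown for the GATA motif, in capitals, and Tfrc as the receptor whose window lacks it.
Epor, chr9:21963577-21963826, minus strand: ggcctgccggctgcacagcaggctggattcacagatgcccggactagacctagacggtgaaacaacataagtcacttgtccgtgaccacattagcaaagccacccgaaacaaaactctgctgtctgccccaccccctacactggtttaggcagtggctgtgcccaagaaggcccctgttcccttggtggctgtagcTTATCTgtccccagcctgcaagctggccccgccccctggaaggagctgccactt
Tal1, chr4:115056176-115056425, plus strand: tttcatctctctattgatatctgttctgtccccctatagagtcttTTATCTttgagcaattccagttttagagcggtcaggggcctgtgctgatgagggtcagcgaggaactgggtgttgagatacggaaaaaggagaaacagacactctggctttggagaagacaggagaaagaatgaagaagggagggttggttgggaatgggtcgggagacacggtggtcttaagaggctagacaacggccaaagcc
Tfrc, chr16:32608646-32608895, plus strand: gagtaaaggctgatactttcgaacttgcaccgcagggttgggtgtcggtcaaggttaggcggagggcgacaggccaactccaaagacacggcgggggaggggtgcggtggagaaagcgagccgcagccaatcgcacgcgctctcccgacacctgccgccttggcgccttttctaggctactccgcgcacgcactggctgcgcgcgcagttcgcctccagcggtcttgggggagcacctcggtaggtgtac

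The scanner intensity of each probe was taken to log2 and the 75th percentile of its array was subtracted, so a log2 signal of 0 means a probe as bright as that percentile. In blood 9 of the 11 probes, for 8 of the 9 genes, were detected, which means well above background on all 24 arrays and brighter than 50 on at least 2. Levels of different probes are not compared, since probes bind unequally. Klf1 (A_51_P168630) was not detected in blood. Its intensity ran from 5.72 to 21.7, and it was well above background on 4 of 6 control, 3 of 6 CUMS, 3 of 6 OVX and 2 of 6 OVX+CUMS arrays. The inner Tfrc probe A_51_P167876 had an intensity of 2.01 to 15.7, and passed on 3 of the 24 arrays. Both stay out of the tests. The other inner Tfrc probe, the 3′-end probe, Epor and Rhag were dim but detected, with lowest intensities of 55.7, 67.5, 66.3 and 52.3, while Slc4a1 had a median of 34314. Of the blood cell markers, all 12 platelet, 11 of 12 neutrophil, 9 of 10 B-cell and all 10 T-cell markers were detected in blood. Of 10 neuron markers, 4 were detected as well (Snap25, with a median intensity of 16081, Nrgn with 4155, Camk2a with 709 and Gad1 with 174), while Rbfox3, Syt1, Slc17a7, Gad2, Stmn2 and Tubb3 were not.

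There were 3 slides with 8 arrays each. The first (slide 1) carried the 6 control and 2 CUMS mice, slide 2 held 4 CUMS and 4 OVX mice, and slide 3 held 2 OVX and 6 OVX+CUMS mice. Slide and condition can therefore be told apart in part only, and values with slide as a block, or within 1 slide, stand beside the results. Blood arrays also differed in brightness. Their 75th percentile was 81.3 up to 132 among control animals, 54.9 up to 105 among CUMS animals, 110.4 up to 192 among OVX animals and 103 up to 144 among OVX+CUMS animals. A shift by the spike-in transcripts, in place of the 75th percentile, moved the median difference of all detected probes from 0.04 to 0.39 for OVX and from -0.03 to -0.33 for CUMS.

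**Figure D1:**
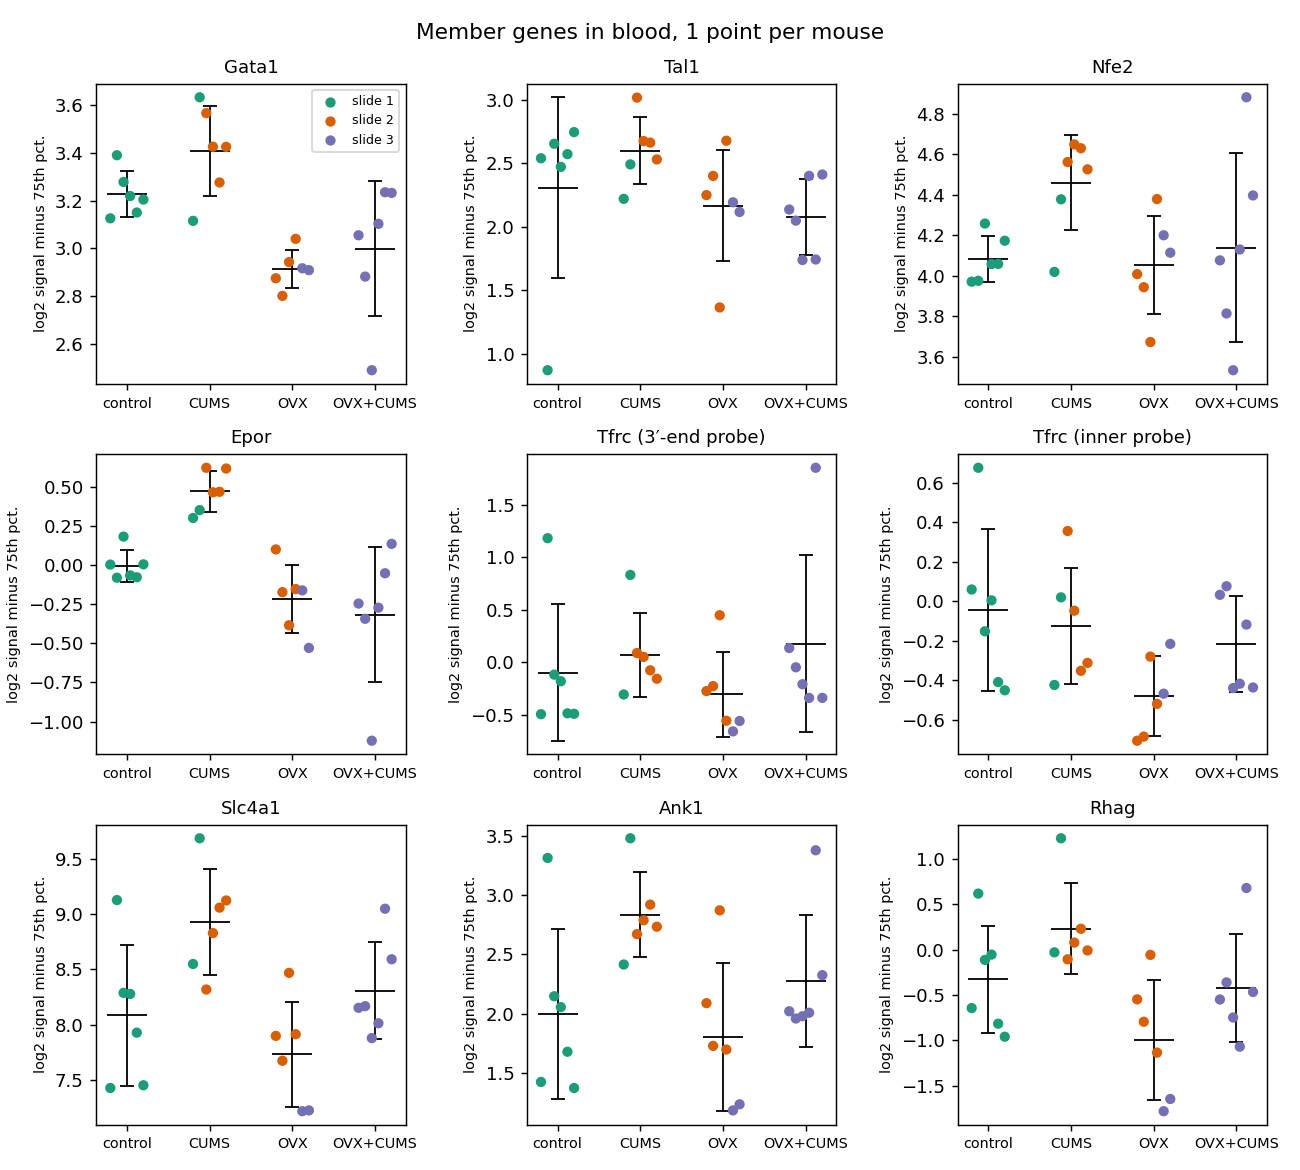
Log2 signal (minus the 75th percentile of the array) of the 9 detected member probes in blood, with 1 point per mouse coloured by slide and the bar and whiskers at the mean and SD of 6 mice; the vertical axes differ between panels and do not start at 0. Slc4a1, Ank1, Rhag and the 3′-end probe of Tfrc share a high point in control mouse 2, CUMS mouse 2, OVX mouse 3 and OVX+CUMS mouse 5, and Tal1 is lowest of its group in the first and the third of these.

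The membrane genes were higher with stress. In the factorial model over all 24 arrays (limma, Benjamini-Hochberg adjusted over 20767 probes), CUMS changed 3 of the 9 member probes, all upwards, against 48.5% of all detected probes in either direction and 19.1% upwards. Slc4a1 rose by 0.71 (standard error 0.20, adjusted p = 0.00685), Ank1 by 0.65 (0.22, adjusted p = 0.0189) and Rhag by 0.57 (0.22, adjusted p = 0.0404). All 9 probes had a positive difference, with a median of 0.23 against -0.03 over all detected probes. On the spike-in scale the differences of Slc4a1, Ank1 and Rhag stayed above 0 and that of Slc4a1 alone passed the threshold. Those of Gata1, Tal1, Nfe2, Epor and the inner Tfrc probe, none of them called, fell below 0 on that scale. Leaving out 1 array at a time gave 2 to 6 called probes: without OVX+CUMS mouse 3 Gata1, Nfe2 and Epor were called too, and Rhag lost its call in 11 of 24 such fits.

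The log2 signal of Slc4a1 ran from 7.42 over a median of 8.10 up to 9.13 among control animals and from 8.32 over 8.94 up to 9.69 among CUMS animals. It ran from 7.21 over 7.78 to 8.47 in OVX mice and from 7.88 over 8.16 to 9.05 in OVX+CUMS mice. The groups overlapped, and in log2 signal only CUMS mouse 2, the dimmest blood array, exceeded the highest control mouse. Before the array percentile was subtracted, intensities ran from 21402 to 45481 in control and from 32161 to 47709 in CUMS mice. CUMS mouse 2 had 45344, below the highest control mouse. Against control mice alone, CUMS mice differed by 0.85 in Slc4a1 (standard error 0.28, limma adjusted p = 0.0267), 0.83 in Ank1 (0.31, adjusted p = 0.0456) and 0.56 in Rhag (0.32, adjusted p = 0.176). With slide as a block these differences were 1.04, 0.95 and 0.93 and did not pass (adjusted p = 0.0858, 0.118 and 0.11). They are then the differences within slide 1, which held 2 CUMS mice. Exact permutation tests of 6 against 6 mice (two-sided) gave p = 0.0325, 0.0346 and 0.0931. With Epor, 3 of 9 member probes were called in this comparison, against 29.7% of all probes.

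Ank1 ran from 1.38 over 1.87 up to 3.31 among control animals, from 2.42 over 2.76 up to 3.48 among CUMS animals, from 1.19 over 1.72 up to 2.87 among OVX animals and from 1.96 over 2.02 up to 3.38 among OVX+CUMS animals. The top of each range was a single mouse. Rhag ran from -0.96 over -0.38 up to 0.62 among control animals, from -0.11 over 0.03 up to 1.22 among CUMS animals, from -1.78 over -0.96 up to -0.06 among OVX animals and from -1.07 over -0.51 up to 0.68 among OVX+CUMS animals. The 2 lowest mice of all were OVX mice 5 and 6, and the groups overlapped here too.

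The rise of the membrane genes with CUMS did not shrink when slide entered the fit. With slide as a block it was 1.06 for Slc4a1 (standard error 0.26, adjusted p = 0.0095 from limma), 1.01 for Ank1 (0.30, adjusted p = 0.0138) and 1.11 for Rhag (0.28, adjusted p = 0.00969), when 49.7% of all probes were called. These block values are the means of the comparisons within slides 1 and 3, so they are not separate results. Each of those comparisons has only 2 mice on 1 side. Within slide 1 the 2 CUMS mice exceeded the 6 control mice by 1.04, 0.95 and 0.93 in Slc4a1, Ank1 and Rhag. In Rhag these 2 mice had -0.03 and 1.22, against a control mean of -0.33. Within slide 3 the 6 OVX+CUMS mice exceeded the 2 OVX mice by 1.09, 1.07 and 1.29. In both of these small comparisons limma called 0 of 20767 probes, a share of 0%, with 6391 and 7625 probes at an unadjusted p under 0.05. Slide 2 compares 4 CUMS with 4 OVX mice, which differ in both stress and surgery, so it gives no effect of CUMS alone. There the CUMS mice were higher by 0.85, 0.68 and 0.68. These 3 probes were called together with Gata1, Nfe2 and Epor, when 52.2% of all probes were.

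Ovariectomy went with lower values. OVX changed 4 of the 9 member probes (limma), all downwards: Rhag fell by 0.66 (standard error 0.22, adjusted p = 0.0171), Epor fell by 0.50 (0.10, adjusted p = 0.000726), Slc4a1 fell by 0.49 (0.20, adjusted p = 0.0397) and Gata1 fell by 0.36 (0.08, adjusted p = 0.00111). The background was 55.1% of all detected probes, and 27.7% downwards. All 9 differences were negative, with a median of -0.36 against 0.04 over all probes. The call of Slc4a1 was lost in 13 of the 24 fits that left out 1 array, with a difference of -0.56 to -0.38. On the spike-in scale the same 4 probes had differences of -0.31, -0.15, -0.14 and -0.01, and none was called.

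**Figure D2:**
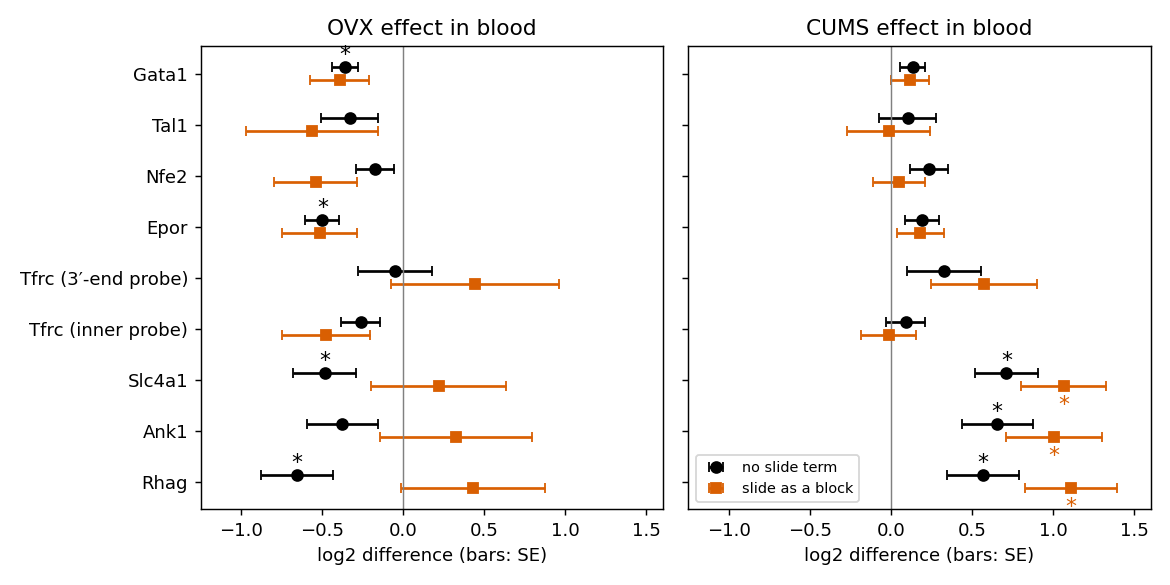
Effect of OVX and of CUMS on the 9 detected member probes in blood, as log2 difference with its standard error, without a slide term (black circles) and with slide as a block (orange squares); an asterisk marks an adjusted p under 0.05 in limma. For OVX, the membrane genes lie below 0 without the slide term and above 0 with it, Gata1 and Epor lie at -0.39 and -0.51 with it, with wider error bars, and none is called with it; for CUMS, Slc4a1, Ank1 and Rhag are called in both fits.

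With slide as a block no OVX call remained. The membrane genes had differences within about 1 standard error of 0 and of the other sign: 0.22 for Slc4a1 (standard error 0.42), 0.33 for Ank1 (0.47) and 0.43 for Rhag (0.44). The 3′-end probe of Tfrc had 0.44 (0.52) and its inner probe -0.48 (0.27). Gata1 had -0.39 (0.18), Epor -0.51 (0.23), Nfe2 -0.54 (0.26) and Tal1 -0.56 (0.41). In that fit limma called 0 of 20767 probes for OVX, a share of 0%, with 1317 at an unadjusted p under 0.05, of which 3 were member probes.

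Among the transcription factors, Gata1 had the tightest groups. Its log2 signal was 3.13 up to 3.39 among control animals (with a median of 3.21), 3.12 up to 3.63 among CUMS animals (3.43), 2.80 up to 3.04 among OVX animals (2.91) and 2.49 up to 3.23 among OVX+CUMS animals (3.08). All 6 OVX mice lay below all 6 control mice, at a mean distance of -0.31 (standard error 0.11, limma adjusted p = 0.0421; exact permutation p = 0.00216, the smallest that 6 against 6 mice allow). It was the 1 member probe called in this comparison, against 27.1% of all probes, and groups were likewise apart for 19.8% of all probes. OVX and control mice share no slide, and a slide term in the fit gave -0.36 (standard error 0.22, limma adjusted p = 0.999), so the call was lost.

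Nfe2 ran from 3.97 up to 4.26 among control animals (with a median of 4.06), from 4.02 up to 4.65 among CUMS animals (4.54), from 3.67 up to 4.38 among OVX animals (4.06) and from 3.53 up to 4.88 among OVX+CUMS animals. In 5 of 6 CUMS mice it exceeded every control mouse, yet the difference of 0.38 (standard error 0.17) had an adjusted p of 0.0847 in limma. Tal1 ran from 0.87 up to 2.74 among control animals (with a median of 2.56), from 2.22 up to 3.02 among CUMS animals (2.60), from 1.36 up to 2.68 among OVX animals (2.22) and from 1.74 up to 2.41 among OVX+CUMS animals (2.09). It was not called for OVX (-0.33, standard error 0.18, adjusted p = 0.114 from limma), and 1 array decided this: without control mouse 2 the difference was -0.47 with an adjusted p of 0.00463.

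Of the receptors, Epor set the CUMS mice apart from the control mice in log2 signal, though not in intensity. It ran from -0.08 up to 0.18 among control animals (with a median of -0.03) and from 0.30 up to 0.62 among CUMS animals (0.47). All 6 CUMS mice lay above all 6 control mice, by 0.48 on average (standard error 0.15, limma adjusted p = 0.0211; exact permutation p = 0.00216), and groups were apart in this way for 4.04% of all probes. Before the array percentile was subtracted, intensities overlapped, at 76.8 to 133 in control and 70.0 to 155 in CUMS mice. That percentile was lower on CUMS arrays (mean 86.3, against 110 on control arrays). With the spike-in shift in its place the call was lost, so the separation depends on the scaling. In OVX mice the log2 signal of Epor ran from -0.53 to 0.10 (median -0.17) and in OVX+CUMS mice from -1.12 to 0.14 (-0.26), and these groups overlapped. The interaction of -0.58 (standard error 0.21) had an unadjusted p of 0.011 and an adjusted p of 0.137 in limma, and so did not pass. With slide as a block the difference of CUMS from control mice came to 0.33 (standard error 0.21, limma adjusted p = 0.23). All 4 stressed mice on slide 2 lay above the 2 on slide 1 in the log2 signal of Epor, and these 2 still lay above every control mouse in it.

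The 3′-end probe of Tfrc ran from -0.49 up to 1.18 among control animals (with a median of -0.33), from -0.31 up to 0.83 among CUMS animals (-0.01), from -0.66 up to 0.45 among OVX animals (-0.41) and from -0.34 up to 1.85 among OVX+CUMS animals (-0.13). The inner probe ran from -0.45 to 0.68, from -0.42 to 0.36, from -0.71 to -0.22 and from -0.44 to 0.08 in the same order, with medians of -0.07, -0.18, -0.49 and -0.27. Groups overlapped throughout. Neither probe was called for OVX (-0.05, standard error 0.23, and -0.26, standard error 0.12, with adjusted p = 0.854 and 0.0643 from limma) or for CUMS (0.33, standard error 0.23, and 0.09, standard error 0.12, with adjusted p = 0.234 and 0.531). Mice of a group differed widely in the 3′-end probe, with a pooled SD of 0.60, but less in the inner probe, with 0.30. The pooled SD was 0.51 for Slc4a1, 0.58 for Ank1, 0.59 for Rhag and 0.18 to 0.46 for the transcription factors.

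No interaction of surgery and stress was called for a member (0 of 9 in limma, 1 unadjusted, against 1.42% of all probes). Between OVX+CUMS and control mice, which share no slide, 0 of 9 were called as well (1 unadjusted, Epor), against 6.26% of all probes, and groups overlapped in all 9. The differences lay between -0.31 (Epor) and 0.28 (Ank1). A slide block, which links these groups only through the others, moved them to 1.28 for Slc4a1 (standard error 0.62), 1.33 for Ank1 (0.70), 1.54 for Rhag (0.66, from -0.09 without the block), 1.02 for the 3′-end Tfrc probe (0.77) and -0.58 for Tal1 (0.60). Nfe2 turned from 0.06 to -0.49 (0.38), and none of the 9 passed (limma adjusted p of 0.698 or more).

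Whether Tfrc and Epor move with the membrane genes was asked across single mice, after the mean of each group was subtracted. With 1 probe per gene, the brightest one detected, the 8 detected genes gave 28 pairs. After adjustment over them (permutation within groups, 100000 resamples), 16 pairs passed, 12 with a positive and 4 with a negative r.

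Tfrc followed the membrane genes by its 3′-end probe. Its deviations correlated with those of Ank1 (r = 0.90, rho = 0.77, permutation p adjusted over pairs 0.000112 and 0.000392), Rhag (r = 0.87, rho = 0.78, adjusted p = 0.00007 and 0.00021) and Slc4a1 (r = 0.78, rho = 0.61, adjusted p = 0.00042 and 0.0111). The unadjusted p of the Rhag pair, 0.00001, is the smallest that these permutations can give. Left without the 2 mice farthest in Tfrc, control mouse 2 and OVX+CUMS mouse 5, the r was 0.83, 0.86 and 0.68. After the mouse with the highest Tfrc of each group was left out, which was chosen after the values were seen, the 20 remaining mice had an r of 0.58 with Ank1, 0.70 with Rhag and 0.34 with Slc4a1, and the last no longer passed (adjusted p = 0.271). Leaving out the highest values of Tfrc also narrows its range. The membrane genes correlated with each other at r = 0.93 (Slc4a1 and Ank1), 0.89 (Slc4a1 and Rhag) and 0.93 (Ank1 and Rhag).

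The inner Tfrc probe followed them less closely, with r = 0.42 for Ank1, 0.38 for Rhag and 0.29 for Slc4a1 (adjusted p = 0.128, 0.134 and 0.348 by permutation), and correlated with the 3′-end probe at r = 0.54. OVX+CUMS mouse 5 had 1.85 by the 3′-end probe and -0.12 by the inner one, while control mouse 2 was highest of its group by both. For Epor no relation with the membrane genes passed within groups over the 24 mice. Its r was 0.22 with Slc4a1, 0.16 with Ank1 and 0.15 with Rhag (rho 0.14, 0.19 and 0.11; adjusted p of r 0.395, 0.528 and 0.564 by permutation), and 0.10 with Tfrc. In the 20 mice left without the 4 highest in Tfrc its r was 0.46, 0.44 and 0.33, and that with Ank1 passed (adjusted p = 0.0511, 0.0382 and 0.261 by permutation). Across all 24 mice without subtracting group means, it was 0.52, 0.44 and 0.48.

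Epor varied with 3 of the transcription factors: r = 0.68 with Gata1, 0.67 with Nfe2 and 0.36 with Tal1 (adjusted p = 0.0257, 0.0295 and 0.0444 by permutation; rho 0.44, 0.63 and 0.54, adjusted p = 0.0977, 0.0111 and 0.0241). Gata1 and Nfe2 had r = 0.69 (adjusted p = 0.0184), and 0.41 without CUMS mouse 1 and OVX+CUMS mouse 3, which were farthest in Gata1. Within control, CUMS, OVX and OVX+CUMS mice this r was 0.05, 0.49, 0.47 and 0.88. That of Epor and Gata1 was 0.05, 0.40, -0.15 and 0.97 in the same order. Without OVX+CUMS mice 3 and 6, which were farthest in Epor, the r of Epor was 0.24 with Gata1, 0.52 with Nfe2 and 0.33 with Tal1. Gata1 also passed with membrane genes, at r = 0.50 with Slc4a1 and 0.47 with Ank1 (adjusted p = 0.0243 and 0.0352 by permutation), and Tal1 passed with the opposite sign. Its values against the membrane genes and Tfrc were r = -0.66 with Ank1, -0.65 with Tfrc, -0.56 with Rhag and -0.56 with Slc4a1 (adjusted p = 0.0243, 0.0176, 0.0218 and 0.0322 by permutation). By rank these 4 did not pass (rho -0.26 to -0.37), and without the 2 mice farthest in the first gene r was -0.12, -0.41, -0.25 and -0.08, so that they rest on those mice.

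**Figure D3:**
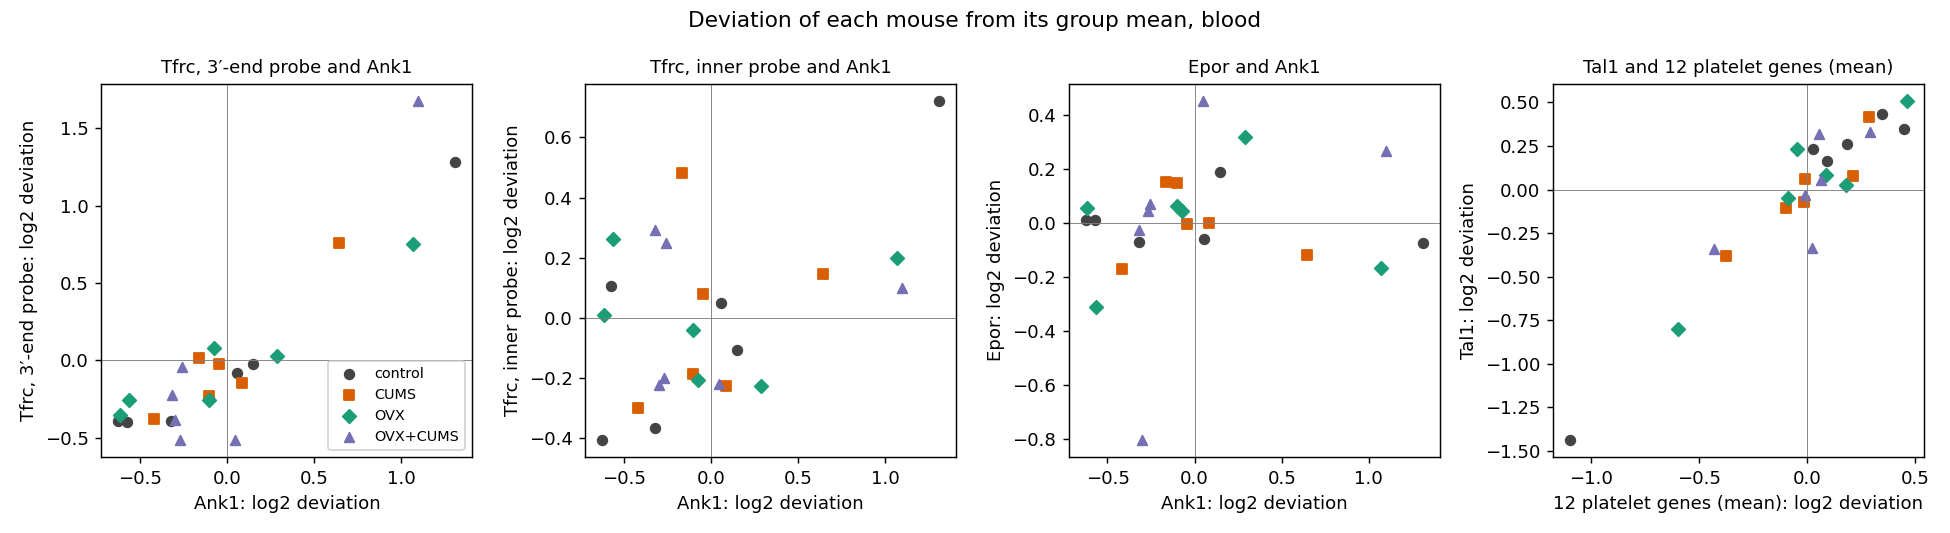
Deviation of the log2 signal of each mouse from its group mean in blood, for Ank1 against the 3′-end probe of Tfrc, the inner probe of Tfrc and Epor, and for the mean of 12 platelet genes against Tal1; each point is 1 of 24 mice, and the shape and colour give its group. The 3′-end probe of Tfrc rises with Ank1 (r = 0.90), with 1 mouse of each group far to the upper right, Epor has r = 0.16, and Tal1 lies along the platelet genes (r = 0.94).

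All these signals share the scaling of their array. Within groups, the log2 75th percentile of the array correlated at r = -0.82 with Slc4a1, -0.68 with Ank1, -0.66 with Rhag, -0.45 with Gata1, -0.44 with the 3′-end probe of Tfrc, -0.15 with its inner probe and -0.14 with Epor (rho -0.79, -0.66, -0.62, -0.36, -0.32, -0.05 and -0.05). Tal1 had 0.33 and Nfe2 0.009 (rho 0.10 and 0.02). The same percentile is subtracted in each of these signals, which pulls r towards negative values. These r are therefore a description, given without p. Scaled by the spike-in transcripts instead, Tfrc had r = 0.69 with Slc4a1, 0.86 with Ank1 and 0.82 with Rhag, and Epor -0.20, -0.17 and -0.18.

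The difference of 2 probes of 1 array is free of any such shift, and was taken after the values above were seen. The log2 signal of the 3′-end Tfrc probe minus that of Ank1 was -2.26 to -1.87 in control mice and -2.99 to -2.58 in CUMS mice. All 6 CUMS mice thus lay below all 6 control mice, though how often other probe pairs set groups apart was not counted. The mean difference was -0.66 (standard error 0.09), with an exact permutation p of 0.00216, and 0.0584 after adjustment over the 27 ratios of both Tfrc probes and Epor to Slc4a1, Ank1 and Rhag in 3 comparisons with control mice. It thus failed the correction, as did the other 26. Over the 18 ratios first tested, before the inner Tfrc probe was added, its adjusted p was 0.039 and it was the 1 that passed. CUMS mice 1 and 2, on the slide of the control mice, had -2.72 and -2.64. Against Slc4a1 the mean difference was -0.68 (0.18, exact permutation p = 0.00866, adjusted 0.0779). The inner Tfrc probe gave -0.92 against Ank1 (0.24, exact permutation p = 0.00433, adjusted 0.0584) and -0.93 against Slc4a1 (0.30). Against Rhag, the 3′-end probe had -0.39 (0.14) and the inner probe -0.64 (0.25) in CUMS mice. The same ratio of the 3′-end probe to Ank1 differed from control mice by -0.01 in OVX mice and by -0.01 in OVX+CUMS mice, and that to Rhag by 0.46 (standard error 0.18, exact permutation p = 0.0303, adjusted 0.117) and 0.36 (0.19). For Epor against Slc4a1 and Ank1 it was -0.37 (standard error 0.35) and -0.36 (0.34) in CUMS mice, and against Rhag -0.08 (0.34).

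Markers of other blood cells moved in the same mice. Of the 12 platelet genes all were detected, and their mean correlated with Tal1 at r = 0.94 (rho = 0.86, adjusted p = 0.00056 by permutation over 56 relations of 8 members with 7 lists), with Nfe2 at r = 0.56 (rho = 0.70) and with Epor at r = 0.50 (rho = 0.63; adjusted p = 0.00294 and 0.0118). Without the 2 mice farthest in the platelet list these were 0.79, 0.69 and 0.70. Control mouse 2 was lowest for both Tal1 (0.87) and the platelet list (-1.08, relative to its mean over all mice). The summed level of the list, in multiples of the 75th percentile, was 419 to 1336 in control, 973 to 1534 in CUMS, 595 to 1172 in OVX and 634 to 1008 in OVX+CUMS mice, and OVX lowered 5 of its 12 genes, where 27.7% of all probes were lowered. Its brightest gene Pf4, a platelet chemokine, had -0.33 for OVX (standard error 0.15, adjusted p = 0.066 from limma). The part of platelets in the values of Tal1, Nfe2 and Epor was not tested.

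Among B-cell genes CUMS lowered 7 and OVX raised 6 of the 9 that were detected, where CUMS lowered 29.4% and OVX raised 27.4% of all probes, with Cd79b, part of the B-cell receptor and the brightest, at -0.53 for CUMS (standard error 0.12, adjusted p = 0.00202 from limma) and 0.40 for OVX (0.12, adjusted p = 0.00663). Their summed level was 228 to 333 in control, 153 to 270 in CUMS, 362 to 437 in OVX and 151 to 362 in OVX+CUMS mice. Within groups the list had r = -0.75 with Tfrc, -0.66 with Ank1, -0.59 with Rhag and -0.56 with Slc4a1 (adjusted p = 0.0198, 0.00294, 0.0198 and 0.0198 by permutation; rho -0.47, -0.58, -0.41 and -0.53, of which that of Ank1 passed). Without the 2 mice farthest in the list these r were -0.37, -0.45, -0.24 and -0.34. Gata1 had r = -0.72 with this list (adjusted p = 0.0531) and rho = -0.78, which passed (adjusted p = 0.00448), and r = -0.71 without the 2 mice. The T-cell list had r = -0.75 with Tfrc, -0.64 with Ank1 and -0.59 with Slc4a1 (adjusted p = 0.0287, 0.0225 and 0.0198 by permutation; rho -0.50, -0.49 and -0.51, which did not pass). Against the same shares, T-cell genes were lowered by CUMS (6 of 10) and by OVX (3 of 10), natural killer genes by CUMS (4 of 8) and by OVX (3 lower and 1 higher of 8), and of 8 monocyte genes OVX raised 2 and CUMS lowered 1. Nfe2 also followed the neutrophil list (r = 0.75, rho = 0.66, adjusted p = 0.00294), which was at 3.04 in OVX+CUMS mouse 5 and at most 0.49 elsewhere, and r was 0.52 without the 2 mice farthest in that list. Of the mast cell, basophil and eosinophil markers 5 of 12 were detected, and Cpa3, Ms4a2, Fcer1a and Epx were not. The part of leukocytes was not tested.

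**Figure D4:**
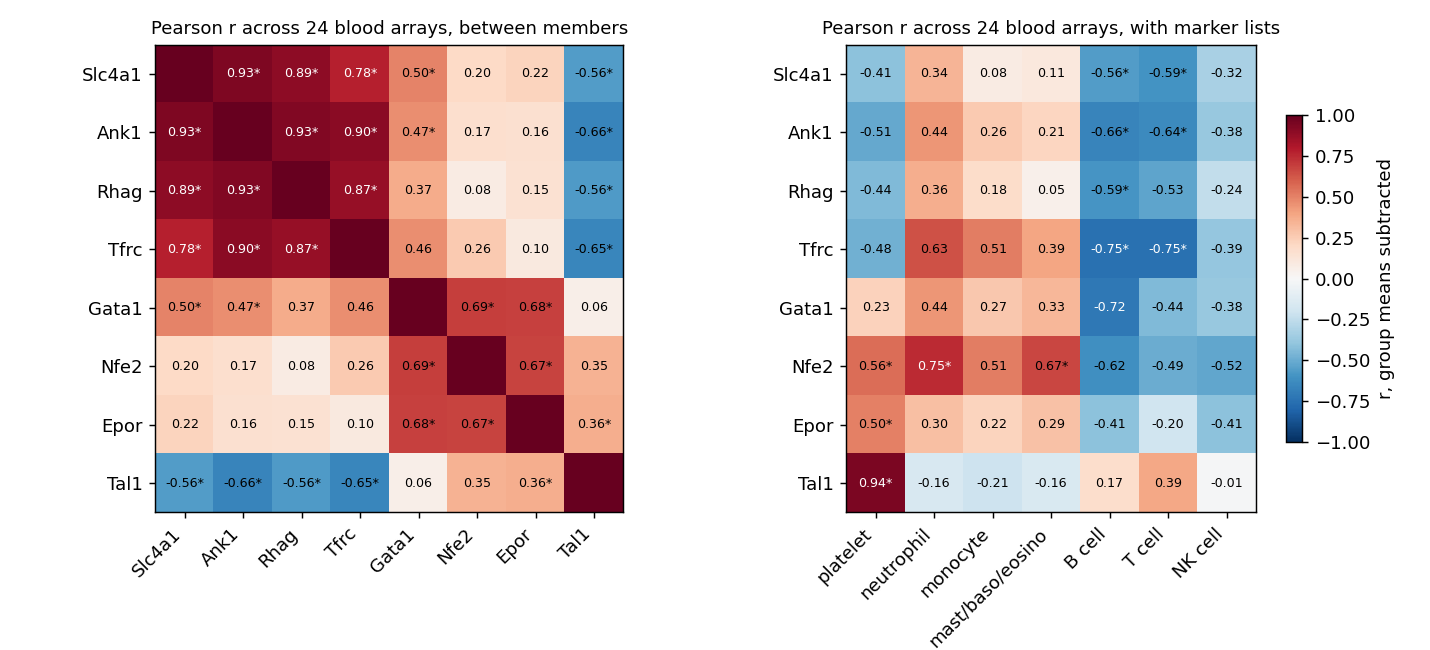
Pearson r between the 8 detected member genes (left) and between these genes and the mean of 7 marker lists of other blood cells (right), across 24 blood arrays after the group means were subtracted; red is positive, blue negative, and an asterisk marks a permutation p under 0.05 after adjustment within the panel. Slc4a1, Ank1, Rhag and Tfrc form one block of 0.78 to 0.93. Gata1, Nfe2 and Epor have 0.67 to 0.69 with each other, highest in OVX+CUMS mice for Gata1, which also passes with Slc4a1 and Ank1.

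Of all other detected genes, those with the pattern most like Slc4a1 over the 24 blood arrays were Mcart1 (r = 0.98), Slc6a9, a glycine transporter (0.97), Hagh (0.97), Mpp1, a palmitoylated red cell membrane protein (0.97), and Gm2058 (0.97). For the 3′-end probe of Tfrc they were Cln8 (0.91), Cpox, an enzyme of haem synthesis (0.91), Tfdp2 (0.91), Nars (0.91) and Abcg2, a transporter of porphyrins (0.90). Points share their array and its scaling, and these r are a description.

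The wider erythroid programme was read through 5 lists, with each gene by its brightest detected probe. The lists were chosen with earlier results of these data known, so their counts are a description and not a test. The list of 37 genes for reticulocytes and red cells, with globins, haem synthesis and organelle clearance, was detected in full. CUMS raised 25 of them and lowered 0, with a median of 0.40, and OVX lowered 24 and raised 0, with a median of -0.48. Over all detected probes, CUMS raised 19.1% and lowered 29.4%, OVX raised 27.4% and lowered 27.7%, and the counts of all 5 lists are to be read against these shares. Its brightest genes were the globins. Hba-a1 changed by -0.45 with OVX (standard error 0.10, adjusted p = 0.00116 from limma) and by 0.26 with CUMS (adjusted p = 0.0379), whereas Hba-a2 and Hbb-b1 fell with OVX (-0.60 and -0.58) and had 0.21 and 0.19 with CUMS, which did not pass. The alpha-globin and beta-globin genes have near-identical copies, so their probes may share signal.

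Of 28 genes of the membrane and its skeleton, 26 were detected, and CUMS raised 12 and lowered 2 while OVX lowered 11 and raised 1. Epb41, the skeletal protein 4.1, changed by -0.48 with OVX and 0.39 with CUMS and Mpp1 by -0.55 and 0.55, all 4 passing, while Actb, the cytoplasmic actin of every cell, fell with OVX too (-0.27, adjusted p = 0.00439 from limma) and had -0.02 with CUMS, which did not pass. In the list of 24 other erythroid regulators, with 22 detected, the calls went both ways: OVX raised 10 and lowered 9, CUMS raised 2 and lowered 10. E2f2 (-0.40 with OVX, 0.45 with CUMS) moved as the membrane genes did. Hemgn and Lmo2 fell with OVX (-0.42 and -0.54) and had 0.12 and 0.21 with CUMS, which did not pass. Those that rose with OVX were Myb (0.71), Tcf3 (0.47), Tcf12 (0.44), Bcl11a (0.43), Bach1 (0.43), Lyl1 (0.41), Zbtb7a (0.32), Ldb1 (0.30), Klf3 (0.29) and Klf13 (0.23).

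Of 19 genes of erythropoietin signalling 11 were detected, and Epo and Kit were not. OVX raised 5 and lowered 2, CUMS raised 1 and lowered 3. Bcl2l1, which keeps erythroid cells alive, changed by -0.48 and 0.44, the phosphatase gene Ptpn6 by 0.47 and -0.28, and Sh2b3 by 0.16 and -0.14, which did not pass. Of 21 genes of iron uptake and storage 18 were detected, with 6 raised and 6 lowered by OVX, and 7 raised and 3 lowered by CUMS. The ferritin chains Ftl1 and Fth1 fell with OVX (-0.52 and -0.68) and rose with CUMS (0.30 and 0.21), and Ncoa4, the ferritin carrier, fell with OVX (-0.54). Over the 5 lists together, each gene once, 114 of 129 were detected. OVX called 74 of them, 22 higher and 52 lower (median -0.28), and CUMS 65, 47 higher and 18 lower (median 0.21), where 55.1% and 48.5% of all probes were called. Over all detected probes the medians were 0.04 and -0.03. With slide as a block 0 of the 114 were called for OVX, and on the spike-in scale the 34 calls for CUMS were 5 higher and 29 lower.

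In mPFC the same array detected Tal1, Epor, Slc4a1, Ank1 and all 3 Tfrc probes, and not Gata1, Nfe2, Rhag or Klf1. The 3′-end Tfrc probe had an intensity of 1261 to 1917 and Epor of 793 to 1287, while Slc4a1 had 33.7 to 80.1. In limma 0 of these 7 probes were called for OVX (1 unadjusted), 0 for CUMS (0 unadjusted) and 0 for the interaction (1 unadjusted), where 30.9%, 4.19% and 4.49% of 28358 probes were. Between OVX+CUMS and control mice Slc4a1 was higher by 0.45 (standard error 0.16, adjusted p = 0.0344 from limma), when 33.4% of all probes were called, and by 0.29 (0.35) with slide as a block. Its deviations in mPFC had r = 0.11 (rho = 0.11) with those of Hba-a1 on the same arrays and r = 0.08 (rho = -0.13) with those of Slc4a1 in blood (adjusted permutation p = 0.736 for both r and 0.616 for both rho). Blood and mPFC arrays were matched by group and replicate number, and the labels do not state that equal numbers are 1 mouse.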

How the data were processed

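Blood and mPFC RNA of 24 mice was hybridized to one-colour Agilent mouse arrays (48 arrays), and the authors read them with Feature Extraction 10.7.3.1. The deposited intensity is its processed signal, after background subtraction, and the deposited log2 values are the authors' own normalized values, used here as an alternative only. From the intensity, log2 values were formed, each array being shifted by its own 75th percentile. Control spots were left out and spots of 1 probe averaged. A probe was detected if well above background on all 24 arrays of the tissue and above 50 on at least 2, which left 20767 probes in blood and 28358 in mPFC. Each tissue was fitted with a factorial model (OVX, CUMS and their interaction) in limma 3.58.1 (R 4.3.3) over all detected probes, with Benjamini-Hochberg adjustment at 0.05. Single differences were also tested by exact permutation, and relations across mice by 100000 permutations within groups (Python 3.11.15). The fits were also run on simulated data with independent noise and no slide or brightness effect, so that run does not bear on slide or scaling. The number of arrays limits the precision, and p-values measure the spread between mice as labelled. Replicate numbers did not pair the mice: same-numbered mice of different groups had deviations that correlated at -0.51 to 0.49 (median -0.09). Genes were named by the array's annotation, or by transcript accession for 5 list genes. The member genes and the gene lists were chosen with earlier results of these data known. The genes named from each list were its brightest detected ones by a stated rule, and the regulators raised with OVX were named after their values were seen. Alternatives were other background corrections, scalings and filters, slide and replicate blocks, and leaving out each array. Within-array ratios, relations to marker lists, and the sets without 2 or 4 mice were added after seeing the data. The ratios were first tested without the inner Tfrc probe, which was added later; 1 of those 18 passed, and the adjusted values given otherwise cover all 27, of which 0 did.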

Additional observations from a re-analysis of the deposited data

Results flagged for a closer look

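Each detected member probe was examined in each group of 6 mice, which gave 64 sets of values. Of these, 9 held a mouse that stood apart from the nearest of the others. Chance alone flags about 1 in 20 sets, but the sets reuse the same mice and are not independent. In blood, control mouse 2 had a Tal1 log2 signal of 0.87 (nearest 2.47) and a Tfrc 3′-end signal of 1.18 (nearest -0.12). CUMS mouse 2, the dimmest blood array, had 0.83 for the Tfrc 3′-end probe (nearest 0.09) and 1.22 for Rhag (nearest 0.23). OVX+CUMS mouse 5 had 1.85 for the Tfrc 3′-end probe (nearest 0.14) and 3.38 for Ank1 (nearest 2.33). Control mouse 3 had 0.18 for Epor (nearest 0.00). In mPFC, Slc4a1 was at -3.40 in control mouse 5 (nearest -3.89) and at -3.46 in CUMS mouse 2 (nearest -3.91).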

How the results depend on the processing

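The factorial CUMS effect on Slc4a1 kept its call under every alternative run, though its difference between CUMS and control mice alone did not, and each other called member effect in blood was lost under some scaling, filter or block. With the spike-in shift 0 member probes were called for OVX, 1 for CUMS, 0 for CUMS minus control and 0 for OVX minus control in blood, and 34 of the other erythroid genes for CUMS. With slide as a block 0 were called for OVX, 0 for CUMS minus control and 0 for OVX minus control, and 0 other erythroid genes for OVX. With no detection filter, counts were 1 for CUMS, 0 for CUMS minus control, 0 for OVX minus control and 38 other erythroid genes for CUMS. Normexp gave 1 for CUMS minus control, 2 for OVX minus control, 1 for OVX+CUMS minus control and 1 for OVX in mPFC. For OVX minus control, quantile normalization and the 75th percentile over detected probes gave 0, and the replicate block gave 0, although the numbers did not pair the mice; the block moved no other of these counts by over 1.5 times.

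Single effects that changed sign were, for OVX with the spike-in shift, Tal1 (0.018), Nfe2 (0.17) and both Tfrc probes (3′-end 0.30, inner 0.087), with normexp the 3′-end Tfrc probe (0.0097), and with slide as a block the 3′-end Tfrc probe (0.44), Slc4a1 (0.22), Ank1 (0.33) and Rhag (0.43). For CUMS they were, with the spike-in shift, Gata1 (-0.16), Tal1 (-0.19), Nfe2 (-0.065), Epor (-0.11) and the inner Tfrc probe (-0.21), and with slide as a block Tal1 (-0.014) and the inner Tfrc probe (-0.016). Leaving out 1 array gave -0.22 to 0.077 for OVX on the 3′-end Tfrc probe and -0.042 to 0.15 for CUMS on Tal1. The cause was not tested.

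Leaving out 1 array at a time gave 3 to 6 member probes for OVX and 2 to 6 for CUMS in blood, 0 to 0 for the interaction, 1 to 4 for CUMS minus control, 0 to 2 for OVX minus control and 0 to 0 for OVX+CUMS minus control. It gave 65 to 79 other erythroid genes for OVX and 50 to 73 for CUMS, and in mPFC 0 to 1 for OVX, 0 to 0 for CUMS and 0 to 1 for the interaction. Without OVX+CUMS mouse 3 the 6 called for CUMS included Gata1, Nfe2 and Epor. Rhag lost its CUMS call without 1 array in 11 of 24 fits.

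The r of Tfrc was 0.70 to 0.83 with Slc4a1, 0.86 to 0.92 with Ank1 and 0.85 to 0.89 with Rhag without 1 array, and that of Epor 0.10 to 0.30, 0.05 to 0.26 and 0.04 to 0.24. The inner Tfrc probe gave 0.29, 0.42 and 0.38, which did not pass. Epor had -0.20, -0.17 and -0.18 with the spike-in shift. With no group mean subtracted it had 0.52, 0.44 and 0.48, which take in the differences between groups and are a description without p. Without the 4 mice highest in Tfrc, Tfrc and Slc4a1 had 0.34 and Epor and Ank1 0.44, of which the latter passed. The ratio of Tfrc to Ank1 in CUMS minus control mice stayed between -0.70 and -0.62 without 1 array. Dim probes (Klf1, an inner Tfrc probe) limit what could be tested.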
